A study of Mus musculus with 12 samples.

Results

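The genes described here are 10 immediate early genes of the mouse: the AP-1 subunits Fos, Fosb, Jun, Junb and Jund, the transcription factors Egr1 and Klf2, the nuclear protein Ier2, the phosphatase Dusp1 and the RNA-binding protein Zfp36. They were taken by name, with no measured value in the rule, from a table of 37187 genes. All 10 were among the 14045 genes with enough signal to be tested, meaning that 3 or more libraries reached a value of 10. Gene positions below are on GRCm38 from the GENCODE M21 annotation.

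RNA was sequenced from LSK cells of mouse bone marrow, which lack the lineage markers of mature blood cells, carry SCA-1 and CD117 (the receptor c-Kit), and include the stem cells of the blood. The 12 libraries comprised 3 of each of 4 genotypes: Tet2;TRaf6 dKO (called dKO here), in which both Tet2 and Traf6 were knocked out, Tet2 KO, Traf6 KO and WT, with no treatment named for any group. TET2 oxidises 5-methylcytosine, a step towards DNA demethylation, and TRAF6 is a ubiquitin ligase that relays signals from Toll-like and interleukin-1 receptors to NF-kB and the MAP kinases. The sources used here give no allele, Cre driver, age or sex of the mice. Whether the 3 libraries of a genotype came from different animals is not given, and the p-values below rest on a spread between libraries that may be technical. In bulk RNA, a different number of cells of a type and a different amount of transcript per cell cannot be told apart.

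Immediate early genes are switched on within minutes of a growth factor, cytokine or stress signal, from factors already present in the cell, and their RNAs are short-lived. FOS proteins cannot pair with themselves and bind DNA as dimers with JUN proteins, and these AP-1 dimers, with EGR1, turn on later genes. DUSP1 and ZFP36 act as brakes: DUSP1 dephosphorylates the p38, JNK and ERK kinases, and ZFP36 (tristetraprolin) binds AU-rich elements and marks RNAs for decay. In mouse blood stem cells, JUNB and EGR1 are known to restrain cell division.

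Promoters of 4 members that moved together are shown, because they hold the letters of elements known to relay such signals. Each is the 250 bases before the RefSeq gene start (GRCm38.p6), 5′ to 3′ on the gene's strand: Fos at chr12:85473640-85473889 (plus strand), Fosb at chr7:19310046-19310295 (minus), Dusp1 at chr17:26508473-26508722 (minus) and Zfp36 at chr7:28379229-28379478 (minus). Capitals mark TGACG, the core of the cAMP response element, TATAAA, the TATA box, and the CArG box, the element bound by serum response factor.
Fos: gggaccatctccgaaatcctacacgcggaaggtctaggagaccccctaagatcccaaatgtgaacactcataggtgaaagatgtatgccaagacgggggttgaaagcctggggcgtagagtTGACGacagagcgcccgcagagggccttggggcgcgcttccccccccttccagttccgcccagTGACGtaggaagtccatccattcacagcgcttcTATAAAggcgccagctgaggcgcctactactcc
Fosb: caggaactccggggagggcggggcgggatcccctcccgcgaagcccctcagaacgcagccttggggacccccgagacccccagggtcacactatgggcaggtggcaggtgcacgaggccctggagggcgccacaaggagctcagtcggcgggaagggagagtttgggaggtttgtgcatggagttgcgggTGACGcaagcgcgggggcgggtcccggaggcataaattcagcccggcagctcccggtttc
Dusp1: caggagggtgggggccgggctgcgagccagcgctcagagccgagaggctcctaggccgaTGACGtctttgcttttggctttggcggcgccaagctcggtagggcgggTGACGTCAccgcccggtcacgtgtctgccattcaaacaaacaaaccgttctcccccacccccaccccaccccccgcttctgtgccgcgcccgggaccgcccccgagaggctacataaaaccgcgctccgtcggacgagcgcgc
Zfp36: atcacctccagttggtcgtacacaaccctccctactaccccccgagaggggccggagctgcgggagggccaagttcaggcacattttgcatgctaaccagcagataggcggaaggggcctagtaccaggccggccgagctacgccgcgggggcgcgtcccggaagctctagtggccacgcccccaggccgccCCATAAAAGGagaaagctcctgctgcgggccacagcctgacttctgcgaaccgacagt

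A RefSeq promoter was matched for 8 of the 10 genes, and Egr1 and Ier2 are named only. On either strand, TGACG was found in 5 of the 8 promoters (Fos, Fosb, Junb, Klf2 and Dusp1) and in 17.8% of 32851 mouse promoters of the same length. The full element TGACGTCA, which contains TGACG, was found in Dusp1 alone of the 8, and in 1.55% of all promoters. TATAAA was found in Fos, and in 12.4% of all promoters, and the CArG box in Zfp36, and in 1.47%. GCGNGGGCG, the EGR site, was found in Fosb, Klf2 and Zfp36, and in 4.7% of all promoters. TGANTCA, the site of AP-1 itself, was found in 0 of the 8, and in 6.75% of all promoters. GGGCGG, the GC box, was found in 6 of the 8, and in 32.7% of all promoters. These matches describe the letters in the windows and say nothing of binding in these cells. Bases further upstream were not searched, so an element missing here may lie outside the window. The Jund window, chr8:70697489-70697738, ends well before the GENCODE start of that gene at 70698949. The Dusp1 and Zfp36 windows lie inside the GENCODE spans of those genes, 26505590 to 26562128 and 28376784 to 28380253, so they do not precede the outermost annotated starts.

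At the other end of the transcript, the stretch TTATTTATT, the preferred site of ZFP36 in AU-rich elements, was found in the 3′ untranslated region of 3 members, with 2 copies in Dusp1, and the first copy of each is shown in capitals within its surroundings. The sites lie in the last exon of Fos (chr12:85477103-85477131, plus strand), Dusp1 (chr17:26506159-26506187, minus strand) and Zfp36 itself (chr7:28376951-28376979, minus strand).
Fos: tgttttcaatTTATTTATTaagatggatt
Dusp1: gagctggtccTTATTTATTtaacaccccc
Zfp36: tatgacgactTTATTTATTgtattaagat

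Of 12617 tested genes with an annotated 3′ untranslated region, 7.72% held this stretch. The shorter TATTTAT, which lies inside it, was found in 7 of the 10 members and in 29.2% of those genes, although the members' regions were shorter (median 764.5 nucleotides, against 1112 for all). ATTTA, which lies inside both, was found in 9 of the 10, all but Ier2, and in 69.0% of those genes.

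Values are the authors' normalised signal, in which each library's read counts were scaled by 1 factor, and the reads recovered from it numbered 22169673 to 53921402 per library. Behind a value of a member stood 28 to 799 reads for Fosb, 57 to 610 for Klf2 and 627 or more for the other 8. Of the targeted genes, Tet2 stood at 197 to 326 in dKO, 403 to 668 in Tet2 KO and 525 to 783 in WT, where the library labelled Tet2 KO replicate 1 lay among the WT values, and Traf6 stood at 799 to 1313 in dKO, 568 to 2474 in Traf6 KO and 1935 to 3006 in WT, where the library labelled Traf6 KO replicate 1 lay among the WT values. Where not targeted, Tet2 stood at 339 to 722 in Traf6 KO and Traf6 at 1432 to 3127 in Tet2 KO, both reaching below the WT values. The RNA level of a target thus did not separate the single knockouts from each other. Xist stood at 990 or more in every library of the single knockouts and at 17.0 or less in dKO and WT, and Traf6 KO replicate 1 held the Y-linked Eif2s3y as well, at 1524, so in comparisons with a single knockout sex and genotype cannot be told apart. The dKO libraries also held relatively more signal from short transcripts. Across genes, each library's log2 difference from the WT mean had rank correlations with length of -0.52, -0.59 and -0.60 in dKO. The other 9 libraries had -0.40 to 0.29, with the WT libraries measured against a mean that includes them. Changes of the 10 genes in dKO are given both as deposited and with a length and GC correction. In that correction, a smooth trend on these properties was subtracted from each library. The signal total of dKO replicate 3 was 39973892, against 25557760 to 28916082 in the other 11 libraries.

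All 10 genes rose in dKO relative to WT, where 21.9% of the 14045 tested genes were called higher (limma, adjusted p under 0.05). Changes are differences of log2(value + 1), which understate those of scarce genes. Their median log2 change was 2.40, against -0.09 for all tested genes, and the range was 1.48 for Jun to 3.92 for Fos. Fos ranked 52nd, Fosb 89th and Klf2 92nd from the top of the 14045 log2 changes. For each of the 10, the lowest dKO library stood above the highest WT library, a separation found upward in 27.9% of tested genes. After the length and GC correction, all 10 again rose, with a median of 2.36 and a range of 0.87 for Ier2 to 4.33 for Fosb, where 14.1% of 13705 genes were called higher.

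**Figure D1:**
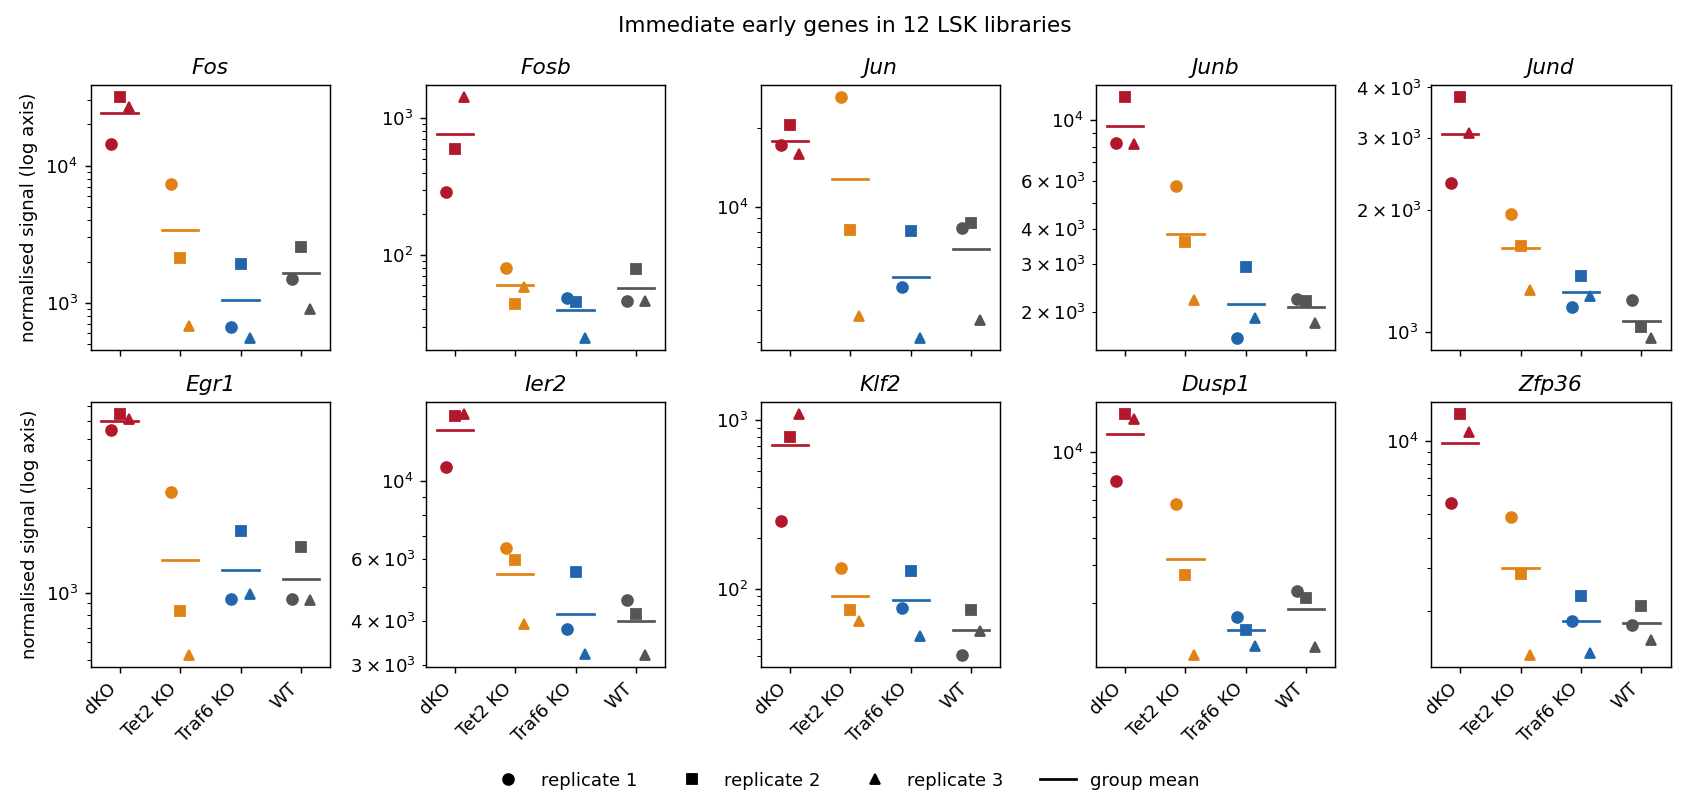
Normalised signal of the 10 genes (log axis) in the 3 libraries of dKO, Tet2 KO, Traf6 KO and WT; each point is a library, its shape gives the replicate number and the bar is the group mean. The 3 dKO libraries stand above the other 9 for every gene except Jun, and Tet2 KO replicate 1 is the highest of those 9 for every gene.

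Fos (chromosome 12, 85473890 to 85477273, plus strand), the founding partner of JUN proteins in AP-1, stood at 14354, 31636 and 26526 in dKO replicates 1, 2 and 3, against 1495, 2533 and 907 in WT. The dKO libraries were well apart from WT, and dKO replicate 1 was the lowest of its group. The means were 24172 ± 8878 in dKO and 1645 ± 823 in WT (SD, n = 3 each), a ratio of 14.7, and the log2 change was 3.92 ± 0.71 (SE), adjusted p = 0.0013. Fosb (chromosome 7, 19302696 to 19310051, minus strand), a FOS relative whose products build up after repeated stimulation in the brain, stood at 288, 593 and 1428 in dKO, against 46.1, 78.8 and 46.2 in WT. Here dKO replicate 3 was the highest and the dKO libraries spread 4.96-fold among themselves, while the WT libraries spread 1.71-fold. The log2 change of Fosb was 3.48 ± 0.57 (SE), adjusted p = 0.00074. After the length and GC correction, the log2 changes were 3.31 for Fos (adjusted p = 0.00643) and 4.33 for Fosb (adjusted p = 0.00118).

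Junb (chromosome 8, 84974484 to 84978718, minus strand), a JUN relative with weaker activation of many AP-1 targets, stood at 8271, 12127 and 8166 in dKO, against 2224, 2190.1 and 1815 in WT. The WT libraries lay close together and each dKO library was several times above them. The log2 change was 2.18 ± 0.33 (SE), adjusted p = 0.00053, and 1.63 after the length and GC correction (adjusted p = 0.00713). Jund (chromosome 8, 70698949 to 70700616, plus strand), the JUN family member least dependent on stimulation, stood at 2332, 3790.3 and 3090.1 in dKO, against 1198, 1030.5 and 968 in WT. Jund and Jun had the smallest changes of the 10, for Jund 1.5 ± 0.25 (SE) on the log2 scale, adjusted p = 0.00077, and 1.0 after the correction (adjusted p = 0.0117).

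Jun (chromosome 4, 95049034 to 95052222, minus strand), the FOS partner in the classical AP-1 dimer, stood at 17313, 20621 and 15927 in dKO, against 8241, 8629 and 3650.0 in WT. The groups did not overlap, but WT replicate 3 was far below the other WT libraries. The log2 change was 1.48 ± 0.57 (SE), adjusted p = 0.0448, the weakest call of the 10. It ended when any of 8 libraries was left out, with log2 changes of 1.67, 1.70 and 1.08 without WT replicates 1, 2 and 3, of 1.51, 1.38 and 1.57 without dKO replicates 1, 2 and 3, and of 1.48 without Tet2 KO replicate 2 or Traf6 KO replicate 1 (adjusted p 0.0558 to 0.178). It also ended with equal library totals (adjusted p = 0.112), without the filter (0.0702) and with edgeR (0.075), while the corrected value was 1.92 (adjusted p = 0.0332, or 0.0762 without dKO replicate 3).

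To set subunits side by side, signal was divided by transcript length, and on that scale the 5 AP-1 subunits summed to 18285, 30607 and 24322 per kilobase in dKO, against 5253, 5757 and 3170.3 in WT. Fos and Fosb together made up 37.7%, 49.6% and 53.3% of this sum in dKO, against 13.7%, 21.2% and 13.96% in WT. Fosb was at most 1.55% of the sum in any library, so the FOS share was nearly all Fos. The Jun share was 23.8 ± 5.12% in dKO and 44.1 ± 7.01% in WT, and the Jund share 7.56 ± 0.13% in dKO and 14.2 ± 3.82% in WT (SD, n = 3 each). The FOS share was 15.7 ± 6.04% in Tet2 KO and 11.4 ± 3.78% in Traf6 KO, both ranges overlapped that of WT, and no library outside dKO exceeded 21.8%. The shares were not tested, rest on annotated lengths and say nothing of protein. They use signal as deposited, without the length and GC correction, which brings Fos and Jun closer. Their log2 changes in dKO against WT were 3.92 and 1.48 as deposited, and 3.31 and 1.92 after the correction.

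**Figure D2:**
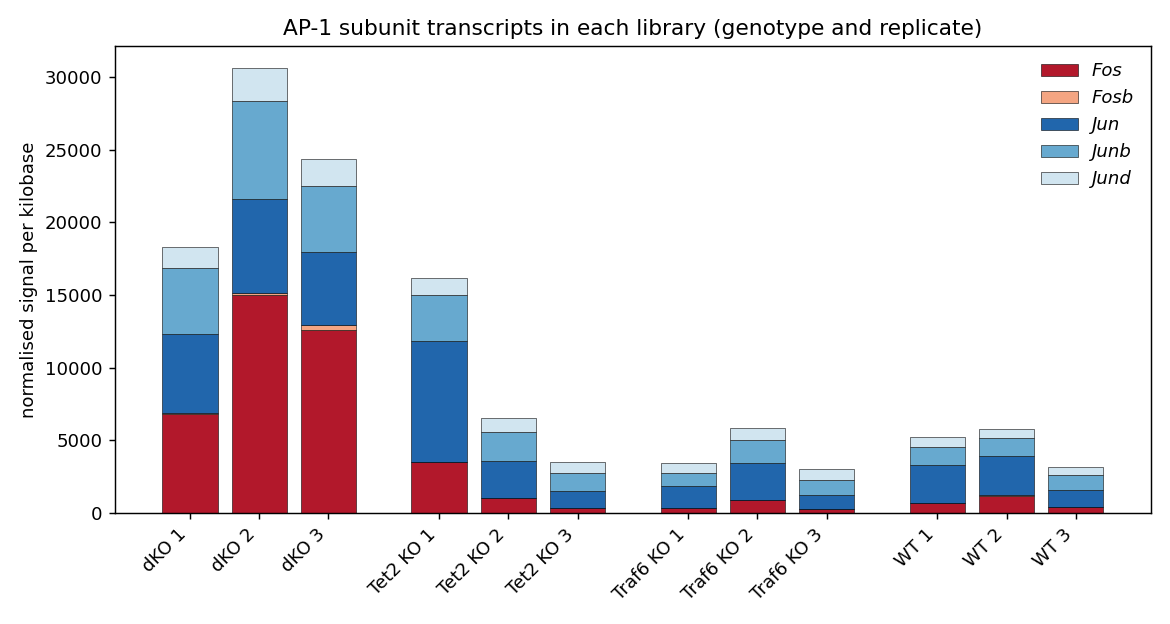
Normalised signal per kilobase of the 5 AP-1 subunit genes, stacked, in each library of dKO, Tet2 KO, Traf6 KO and WT, with replicate numbers below the bars. The dKO bars reach 18285 to 30607, of which 37.7% to 53.3% is Fos and Fosb; Tet2 KO replicate 1 reaches 16154, with 51.3% of it Jun.

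Egr1 (chromosome 18, 34859823 to 34864984, plus strand), a zinc finger factor induced through serum response factor, stood at 5478.5, 6465.5 and 6169 in dKO, against 946, 1618 and 935 in WT. It was the tightest of the 10 genes in dKO, with a 1.18-fold spread between the libraries. The log2 change was 2.42 ± 0.50 (SE), adjusted p = 0.00249, and 3.66 after the length and GC correction (adjusted p = 0.000933). Klf2 (chromosome 8, 72319033 to 72321656, plus strand), a factor that holds lymphocytes quiescent and responds to fluid shear in endothelium, stood at 252, 793 and 1090.2 in dKO, against 40.4, 74.3 and 55.8 in WT. Klf2 was scarce in WT, and dKO replicate 1 was 4.32 times below dKO replicate 3 but still above every WT library. The log2 change was 3.43 ± 0.56 (SE), adjusted p = 0.000772, and 2.88 after the correction (adjusted p = 0.0027).

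Ier2 (chromosome 8, 84661331 to 84662852, minus strand), an intronless gene for a nuclear protein, stood at 10991, 15344 and 15534 in dKO, against 4577, 4201 and 3205 in WT. It was the most abundant of the 10 per kilobase in WT, with 2624 ± 466 per kilobase there and 9170 ± 1689 in dKO (SD, n = 3 each), where Fos stood above it with 11467 ± 4212. The log2 change was 1.80 ± 0.27 (SE), adjusted p = 0.000509, the smallest of the 10 p-values. It was also the gene that lost most under the length and GC correction, to 0.87 (adjusted p = 0.0375), and its transcript, at 1522 nucleotides, is the shortest of the 10.

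Both feedback genes, the phosphatase and the RNA decay factor, rose. Dusp1 (chromosome 17, 26505590 to 26562128, minus strand) stood at 7346, 15009 and 14210 in dKO, against 2259.9, 2110.1 and 1253 in WT. The log2 change was 2.68 ± 0.47 (SE), adjusted p = 0.00114, and 2.31 after the correction (adjusted p = 0.00546). Zfp36 (chromosome 7, 28376784 to 28380253, minus strand) stood at 5549.8, 12871 and 10818 in dKO, against 1750.5, 2099.8 and 1509 in WT. As for Dusp1, dKO replicate 1 was the lowest dKO library and no WT library reached it. The log2 change of Zfp36 was 2.37 ± 0.43 (SE), adjusted p = 0.00122, and 2.42 after the correction (adjusted p = 0.0031). Dusp1 and Zfp36 are 2 of the 3 genes printed above with TTATTTATT, and Fos, the largest change, is the other.

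Because short transcripts stood higher in dKO as a whole, the members were set against genes of like length. Genes of 1000 to 2000 nucleotides had a median log2 change of 1.05 and a 95th percentile of 2.18, and in this range lay Ier2 at 1.80, Jund at 1.5, Junb at 2.18 and Klf2 at 3.43. Genes of 2000 to 3000 nucleotides had a median of 0.265 and a 95th percentile of 1.80, below Fos at 3.92, Dusp1 at 2.68 and Zfp36 at 2.37. Genes of 3000 to 4000 nucleotides had a median of -0.48, with Fosb at 3.48 and Jun at 1.48, and genes over 4000 nucleotides had a median of -1.23 and a 95th percentile of 1.10, with Egr1 at 2.42. Jund and Ier2 lay inside the range of genes of their length and Junb at its upper edge, Jun lay just above the 95th percentile of 1.43, and Fos, Fosb, Egr1, Dusp1, Zfp36 and Klf2 lay well above theirs. The length used for Dusp1, 2313 nucleotides, is that of a transcript with a retained intron.

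**Figure D3:**
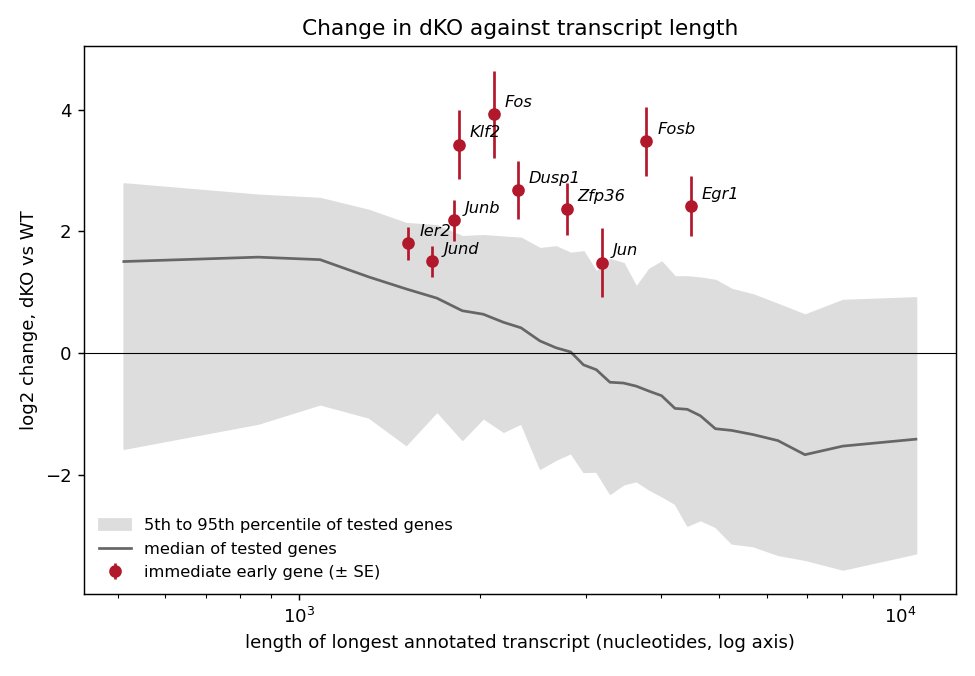
Log2 change in dKO against WT (vertical axis) by length of the longest annotated transcript in nucleotides (log axis); red points are the 10 genes with SE, the line is the median of tested genes and the band their 5th to 95th percentile. Fos, Fosb, Egr1, Klf2, Dusp1 and Zfp36 lie well above the band, and Jund and Ier2 lie inside it.

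Set against Tet2 KO, 9 of the 10 genes rose in dKO, all but Jun, where 15.5% of tested genes were called higher, and the median log2 change was 1.98, against -0.12 for all tested genes. The same 9 had every dKO library above every Tet2 KO library, as did 22.0% of tested genes. Fos stood at 14354, 31636 and 26526 in dKO, against 7362, 2117 and 682 in Tet2 KO, with a log2 change of 3.38 ± 0.71 (SE), adjusted p = 0.00849. Egr1 stood at 5478.5 to 6465.5 in dKO and at 2885, 832 and 527 in Tet2 KO, with a log2 change of 2.48 ± 0.50 (SE), adjusted p = 0.00784. In both genes Tet2 KO replicate 1 was the nearest to dKO without reaching it. Jun stood at 15927 to 20621 in dKO and at 26445, 8158 and 3789 in Tet2 KO, so Tet2 KO replicate 1 exceeded every dKO library, and the log2 change was 0.93 ± 0.57 (SE), adjusted p = 0.211. After the length and GC correction, 6 genes rose (Fos, Fosb, Egr1, Klf2, Dusp1 and Zfp36), where 8.67% of genes were called higher, and Junb, Jund and Ier2 had adjusted p = 0.0876, 0.202 and 0.158. The Jund call, 0.92 ± 0.25 (SE), adjusted p = 0.0163, also ended without Tet2 KO replicate 3 (0.76, adjusted p = 0.059), without dKO replicate 2 (0.76, adjusted p = 0.0595) and with equal library totals (0.67, adjusted p = 0.0732). With only the dKO and Tet2 KO libraries fitted, 0 of the 10 passed, where 0.171% of tested genes, 24 in number, did.

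Set against Traf6 KO, all 10 genes rose in dKO, where 17.3% of tested genes were called higher, with a median log2 change of 2.34, against 0.02 for all tested genes. Fos stood at 668, 1925 and 556 in Traf6 KO, and its log2 change in dKO was 4.68 ± 0.71 (SE), adjusted p = 0.00199, the largest of any member between groups as deposited. Fosb stood at 48.2, 45.2 and 24.9 in Traf6 KO, with a log2 change of 4.01 ± 0.57 (SE), adjusted p = 0.00185. Dusp1 stood at 1719, 1496.5 and 1259 in Traf6 KO, with a log2 change of 2.97 ± 0.47 (SE), adjusted p = 0.00212. For all 10 the lowest dKO library stood above the highest Traf6 KO library, as for 23.2% of tested genes. Corrected for length and GC, all 10 rose, where 9.35% of genes were called higher, with Ier2 (adjusted p = 0.0434) and Jund (0.0497) near the threshold. With dKO replicate 3 left out as well, 8 of the 10 passed, where 6.41% of genes were called higher. Jun (adjusted p = 0.0673) and Jund (0.0614) did not. The Jun call, 1.84 ± 0.57 (SE), adjusted p = 0.0257, ended without Traf6 KO replicate 1 (1.84, adjusted p = 0.0673) or 3 (1.51, adjusted p = 0.101) and without dKO replicate 2 (1.74, adjusted p = 0.0628) or 3 (1.93, adjusted p = 0.051). The 3 dKO comparisons share the dKO libraries and are not independent of each other.

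In Tet2 KO against WT none of the 10 passed limma's test, where 0.413% of tested genes were called in either direction, and edgeR and DESeq2 called 0 of them as well. At an unadjusted p under 0.05 there were 2, Junb and Jund, where 8.44% of tested genes had one. Jund stood at 1951, 1624 and 1267 in Tet2 KO, against 1198, 1030.5 and 968 in WT, the only member whose groups did not overlap, upward as in 8.07% of tested genes, with a log2 change of 0.58 ± 0.25 (SE), adjusted p = 0.508. Junb stood at 5749, 3579 and 2204 in Tet2 KO and at 2224, 2190.1 and 1815 in WT, with a log2 change of 0.79 ± 0.33 (SE), adjusted p = 0.498. The median over the 10 was 0.55 in log2, against 0.02 for all tested genes, and 9 of the 10 changes were above 0, all but Egr1 at -0.06. That median was 0.04 without Tet2 KO replicate 1.

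In Traf6 KO against WT none of the 10 passed limma's test, where 0.271% of tested genes were called, and edgeR and DESeq2 again called 0. There was also none at an unadjusted p under 0.05, where 7.8% of tested genes had one. The median log2 change of the 10 was 0.00, with 6 values above 0 and a range of -0.75 for Fos to 0.53 for Klf2. Fos stood at 668, 1925 and 556 in Traf6 KO and at 1495, 2533 and 907 in WT, so the groups overlapped, and the log2 change was -0.75 ± 0.71 (SE), adjusted p = 0.852. With an SE of this size, moderate changes of Fos were not detectable between 3 libraries a group.

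**Figure D4:**
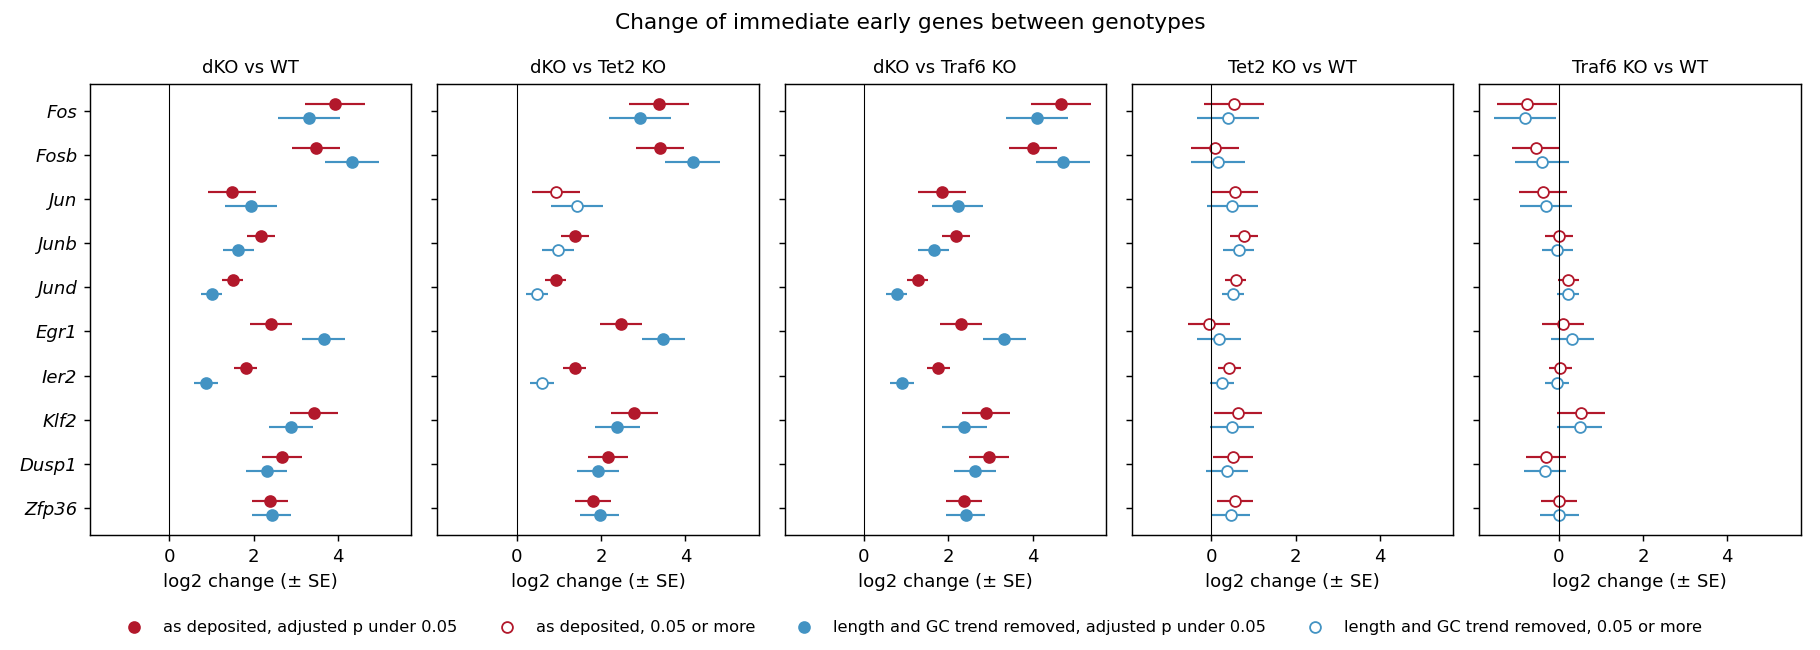
Log2 change ± SE of the 10 genes in dKO against WT, Tet2 KO and Traf6 KO and in each single knockout against WT, as deposited (red) and after the length and GC correction (blue); filled points had an adjusted p under 0.05. All 10 points as deposited are filled in dKO against WT and against Traf6 KO, 9 in dKO against Tet2 KO and none in the single knockouts.

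Whether loss of both genes differed from the sum of the single losses was tested as an interaction, the change in dKO against Tet2 KO minus the change in Traf6 KO against WT on the log2 scale. All 10 values were above 0, with a median of 2.03, against -0.01 for all tested genes. None passed limma's test, where 0.221% of tested genes did, and edgeR called 0, while 8 of the 10, all but Jun and Jund, had an unadjusted p under 0.05, as 18.6% of tested genes did. The largest was Fos, 4.14 ± 1.01 (SE), adjusted p = 0.189, and the smallest adjusted p was 0.0913, for Fosb at 3.92 ± 0.80 (SE). DESeq2 called 3, where it called 1.84% of tested genes, Fos at 3.50 (adjusted p = 0.0242), Fosb at 4.22 (adjusted p = 3.44e-05) and Dusp1 at 2.28 (adjusted p = 0.0439). Without dKO replicate 1, 7 passed limma's test, where 17.4% of tested genes did and 5.13% did upward (Fos at 4.47, Fosb at 4.48, Egr1 at 2.44, Ier2 at 1.49, Klf2 at 2.89, Dusp1 at 2.78 and Zfp36 at 2.16; adjusted p 0.00405 to 0.0442), and without Tet2 KO replicate 1, 2 did, where 0.157% of tested genes did (Fos at 5.01, adjusted p = 0.049, and Egr1 at 3.08, adjusted p = 0.0367). Whether the interaction passed thus depended on the tool and on which libraries entered.

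Within each genotype the same library tended to be the highest or the lowest across the 10 genes. In Tet2 KO, replicate 1 was the highest library for 10 of 10 genes and replicate 3 the lowest for 9, all but Fosb. In dKO, replicate 1 was the lowest for 8, all but Jun and Junb, and replicate 2 the highest for 7. In WT, replicate 3 was the lowest for 8, and in Traf6 KO, replicate 2 was the highest for 8. The median SD of the members' log2 values was 0.82 in Tet2 KO, against 0.33 for all tested genes, 0.48 against 0.37 in Traf6 KO and 0.435 against 0.25 in WT, but 0.46 against 0.65 in dKO. Fos differed 10.8-fold between Tet2 KO replicates 1 and 3, Jun 6.98-fold, Egr1 5.47-fold and Dusp1 5.01-fold, while Jund and Ier2 differed 1.54-fold and 1.64-fold.

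In every one of the 10 genes the highest library outside dKO was Tet2 KO replicate 1, the only library of its group in which Tet2 stood inside the WT range. Every dKO library stood above all 9 others for 9 of the 10 genes, where 14.9% of tested genes showed this. By group mean, dKO came first and Tet2 KO next for all 10, Traf6 KO came above WT for 6 and WT above Traf6 KO for 4. Below dKO, neighbours in this order overlapped for all 10 genes, while for Jund every Tet2 KO library stood above every WT library, which were not neighbours in its order. With both libraries whose target stood at the WT level left out, the log2 changes in Tet2 KO against WT were -0.77 for Egr1, -0.33 for Fos, -0.20 for Jun, -0.13 for Fosb and -0.05 for Dusp1, and 0.13 for Zfp36, 0.29 for Ier2, 0.33 for Klf2, 0.435 for Jund and 0.44 for Junb, none of them called. All 10 genes still rose in dKO against Traf6 KO, where 1.87% of tested genes did. In dKO against Tet2 KO, 4 of the 10 then passed (Fos, Junb, Egr1 and Dusp1), where 0.185% of tested genes rose, with a median log2 change of 2.49 in place of 1.98.

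Other genes of the same pathways were counted on 8 lists, beside which 21.9% of all tested genes rose and 26.5% fell in dKO against WT, or 14.1% and 15.2% after the length and GC correction. Of 37 other immediate early and primary response genes tested, 12 rose and 3 fell in dKO against WT, with a median log2 change of 0.38. Ier3, an early gene that guards against apoptosis, rose by 2.25 in log2 (adjusted p = 0.00198), Gadd45g, a growth arrest gene, by 2.0 (adjusted p = 0.00146) and Rhob, an early-response GTPase, by 1.485 (adjusted p = 0.00317). Tnfaip3, the A20 brake on NF-kB, fell by 3.11 (adjusted p = 0.000311). After the correction, 7 of the 37 rose and 4 fell, and Ier3 and Gadd45g no longer passed (0.82, adjusted p = 0.0505, and 0.56, adjusted p = 0.19). In dKO against Tet2 KO, 7 of the 37 rose and 3 fell, where 15.5% and 19.9% of tested genes did, and against Traf6 KO 10 rose and 4 fell, where 17.3% and 20.7% did. Atf3, an early gene whose protein pairs with JUN, was singled out after its values were seen: it averaged 14.6 ± 11.1 in dKO, 0.599 ± 0.519 in Traf6 KO and 9.03 ± 3.11 in WT (SD, n = 3 each) and was listed at 0 in Tet2 KO. It passed in dKO against Tet2 KO (adjusted p = 0.0234) and Traf6 KO (adjusted p = 0.0449) but not against WT (adjusted p = 0.893), and in none of the 3 after the correction. Atf3 lay near the filter of 10 and met it only through dKO and WT libraries. Its calls against the single knockouts therefore carry no weight of their own.

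Of 15 other AP-1 and dimer partner genes tested, 2 rose and 4 fell, with a median of -0.27. Creb1, whose protein binds the cAMP response element printed above, fell by 1.47 (adjusted p = 0.00209, or 0.0982 after the correction), and Atf2, a JUN partner, fell by 1.41 (adjusted p = 0.00412, or 0.00963 after the correction). Jdp2, which represses AP-1 sites, rose by 0.78 (adjusted p = 0.0314), and after the length and GC correction 0 of the 15 rose and 2 fell. Of 14 KLF and EGR relatives and corepressors, 3 rose and 3 fell, among them Klf13 at 1.59 (adjusted p = 0.00678) and Nab1, an EGR corepressor, at -0.97 (adjusted p = 0.0382), and after the correction 3 rose and 1 fell, with Nab1 no longer called. Of 14 other dual specificity phosphatases and sprouty genes, Dusp2, an ERK phosphatase, rose by 1.06 (adjusted p = 0.00906) and 5 fell, with Spred1, a RAS inhibitor, at -2.26 (adjusted p = 0.00195), and after the correction 0 rose and 4 fell. Whether Dusp1 differed from its relatives was not tested.

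Of 31 MAP kinase cascade genes, 0 rose and 11 fell against WT, with a median of -0.54, among them Mapk14 (p38 alpha) at -1.39 (adjusted p = 0.00301), Map2k7, which phosphorylates JNK, at -1.48 (adjusted p = 0.00209) and Braf, a RAF kinase, at -1.81 (adjusted p = 0.00531). Of 14 serum response and ternary complex factors and coactivators, 1 rose and 9 fell, with a median of -1.28, led by Ep300, a histone acetyltransferase, at -2.82 (adjusted p = 0.00033) and Mkl1, a coactivator of serum response factor, at -1.84 (adjusted p = 0.000403). Of 12 ZFP36 relatives and decay partners, 1 rose and 5 fell, with Cnot1, the deadenylase scaffold that ZFP36 recruits, at -3.42 (adjusted p = 0.000349) and Zfp36l2 at -1.69 (adjusted p = 0.000758). After the length and GC correction, 5 rose and 5 fell of the kinases, 3 rose and 4 fell of the serum response genes and 3 rose and 3 fell of the decay genes. The medians of these lists were then -0.23, -0.29 and -0.22. Of 15 heat shock genes and their regulators, some of which are known, like the 10, to be induced when tissue is dissociated, 3 rose and 3 fell in dKO against WT. After the correction 3 rose and 0 fell. Those that rose as deposited were Hspe1, a mitochondrial cochaperonin, at 1.90 (adjusted p = 0.00531), and the HSP90 genes Hsp90ab1 at 0.65 (adjusted p = 0.00912) and Hsp90aa1 at 0.83 (adjusted p = 0.0152), of which Hsp90aa1 alone passed after the correction (adjusted p = 0.0296). In dKO against Tet2 KO, 1 rose and 3 fell, or 0 and 0 after the correction, and against Traf6 KO 4 rose and 0 fell, or 2 and 0. The inducible HSP70 gene Hspa1a averaged 158 ± 223 in dKO and 643 ± 672 in Tet2 KO, with 10.3 ± 16.2 in Traf6 KO, against 212 ± 57.3 in WT (SD, n = 3 each), and rose against Traf6 KO (adjusted p = 0.0286). Hspa1b averaged 145 ± 215 in dKO and 1713 ± 2120.4 in Tet2 KO, with 6.26 ± 6.21 in Traf6 KO, against 561 ± 185 in WT (SD, n = 3 each). It fell in dKO against WT (adjusted p = 0.0379, or 0.0877 after the correction) and Tet2 KO (adjusted p = 0.021, or 0.0556), and rose against Traf6 KO (adjusted p = 0.0348, or 0.0533). The part of dissociation in the rise of the 10 genes was not tested. In the single knockouts against WT, 1 gene of the 8 lists was called, Hspa1b, lower in Traf6 KO (-6.88, adjusted p = 0.0305).

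**Figure D5:**
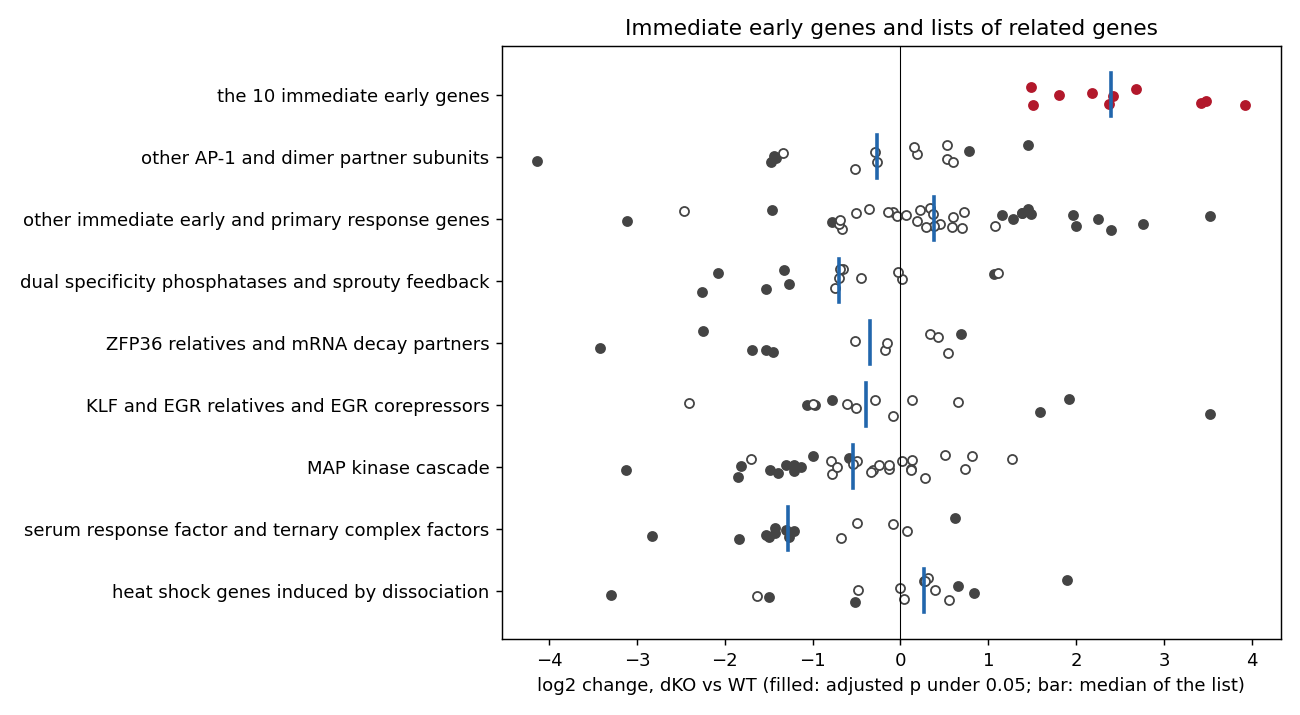
Log2 change in dKO against WT of the 10 genes and of the tested genes of 8 lists of related genes; filled points had an adjusted p under 0.05 and the blue bar is the list's median. As deposited, all 10 members lie at 1.48 or above, while the medians of the 8 lists lie between -1.28 and 0.38. After the length and GC correction (not drawn), the members lie at 0.87 or above and the list medians between -0.49 and 0.42.

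Markers of cells other than LSK cells are given beside these results as sums of signal per library, with counts of markers called in dKO against WT, where 21.9% of all tested genes rose and 26.5% fell, or 14.1% and 15.2% after the length and GC correction. The sum of 9 macrophage, monocyte and dendritic cell markers was 3835 to 7197 in dKO, 1059 to 1834 in Tet2 KO, 1172 to 2191 in Traf6 KO and 753 to 1224 in WT. Of 8 tested, 2 rose, Cd68 and Ccr2, a share near that of all genes, and 3 rose after the correction. The sum of 8 mast cell and basophil markers was 5986 to 10450 in dKO, 1376 to 1770 in Tet2 KO, 3581 to 9376 in Traf6 KO and 1360 to 2214 in WT. Of 6 tested, 5 rose in dKO and 4 after the correction, and 2 rose in Traf6 KO against WT, where 0.271% of all tested genes were called. The macrophage and mast cell sums stood higher in every dKO library than in any WT library. The same held for the lymphoid and erythroid sums given next.

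The sum of 12 B, T and NK cell markers was 9829.9 to 85492 in dKO, 6573 to 19197 in Tet2 KO, 9188 to 13354 in Traf6 KO and 5992 to 7496 in WT, with Cd3e at 0 in all 12 libraries. Of 8 tested, 3 rose in dKO against WT and 1 after the correction. The sum of 8 erythroid markers was 16760 to 36595 in dKO, 7776.5 to 69239 in Tet2 KO, 4708 to 12940 in Traf6 KO and 2721 to 4555 in WT. Of 8 tested, 2 rose and 1 after the correction, a share near that of all genes. The 10 mature neutrophil markers summed to 1329 to 6414 in dKO, 499 to 895 in Tet2 KO, 2086 to 4186 in Traf6 KO and 940 to 3442 in WT. The 8 megakaryocyte and platelet markers summed to 10662 to 16026 in dKO, 15127 to 18088 in Tet2 KO, 21260 to 30194 in Traf6 KO and 19444 to 27499 in WT, and of 7 tested 1 rose and 3 fell, or 0 and 5 after the correction. The 11 stromal and endothelial markers summed to 3340 to 5298 in dKO, 6282 to 9199.5 in Tet2 KO, 6281 to 8750.2 in Traf6 KO and 6334 to 8029 in WT, and of 6 tested 3 fell, but 0 after the correction.

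The list for LSK cells themselves held 10 genes, Kit and Ly6a of the gate and other genes of stem and progenitor cells. Their sum was 87104 to 106750 in dKO, 115270 to 155550 in Tet2 KO, 110240 to 141890 in Traf6 KO and 129790 to 146910 in WT. None was at 0 in any library. As deposited 6 of the 10 fell in dKO against WT (Mecom, Kit, Hlf, Mycn, Meis1 and Slamf1), of which Kit alone encodes a protein used in the sort. After the correction 3 fell and 1 rose. Kit, which encodes the CD117 used in the sort, stood at 11935, 4099 and 4105 in dKO, against 44484, 47837 and 47804 in WT (log2 change -3.0, adjusted p = 0.000326, and -1.84 after the correction, adjusted p = 0.00103). Ly6a, which encodes the SCA-1 of the sort, stood at 1968, 2446 and 13218 in dKO, against 2339, 2205 and 1990 in WT, with dKO replicate 3 far above the rest (log2 change 0.88, adjusted p = 0.181, and -0.66 after the correction, adjusted p = 0.0592). The part of these shifts in the rise of the 10 genes was not tested.

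Across the 12 libraries the 10 genes followed a common profile, the mean of their standardised log2 values, with which each had a Pearson r of 0.877 (Jun) to 0.992 (Zfp36), though the profile includes each gene and the libraries differ by genotype. Among tested genes outside the 10, the 8 closest to the profile were Hist1h2bg (r = 0.969), Ppp1r15a (0.948), the small nucleolar RNA entry SNORA62 (0.94), Gm11336 (0.939), Tpt1 (0.924), Wdr85 (0.924), Phkg2 (0.924) and Gsdmd (0.921), over 12 libraries that share genotype and length trend. SNORA62 lay near the filter, with means of 13.8 in dKO and 3.49 in WT, and met it only through dKO and Tet2 KO libraries. On values corrected for length and GC the 8 closest were Ppp1r15a (0.973), Ttc14 (0.964), Ccnl1 (0.941), Trmt2a (0.917), Ptpn3 (0.909), 1810012P15Rik (0.908), Zfp386 (0.906) and Dimt1 (0.902). Ppp1r15a, which encodes the GADD34 subunit that restores translation after stress, was the gene on both lists. It stood at 2869, 4999 and 3249 in dKO, at 3087, 1767 and 1537 in Tet2 KO, at 1272, 1549.8 and 1301 in Traf6 KO and at 1933, 1609.7 and 1345.5 in WT. Like the 10 genes, it was highest outside dKO in Tet2 KO replicate 1, which here exceeded dKO replicate 1.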

How the data were processed

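Per the submitters' processing notes, reads were handled with bcl2fastq, STAR, featureCounts and DESeq2 on mm10 (GRCm38), and versions are not given in the sources used here. The libraries were made with a low-input full-length cDNA kit that does not mark strand, per the labels' protocols, so reads of overlapping antisense genes cannot be told apart. The authors deposited 1 table of normalised signal, in which dividing by the smallest step of each library gave whole reads for 100% of values within 1e-06, and 22169673 to 53921402 reads per library. How duplicate or shared reads were treated by the counter is not given.

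Values were taken as log2(signal + 1) and fitted with limma 3.58.1 (R 4.3.3; trend and robust options) over all 12 libraries and 4 groups. Tests covered the 14045 genes that reached 10 in 3 libraries or more, with Benjamini-Hochberg adjustment per comparison and a threshold of 0.05. edgeR 4.0.16 (quasi-likelihood, TMM) and DESeq2 1.42.0 were run on the recovered reads as alternatives, and edgeR called 6539 genes in dKO against WT, where limma called 6790. Other alternatives were a pseudocount of 5, no filter, scaling to equal library totals, the replicate number as a block, leaving out each library, the groups of a comparison alone, and the length and GC correction, a loess trend (span 0.5) subtracted per library over 13705 genes. Lengths and positions came from GENCODE M21, with 28387 of 37187 genes matched by symbol and 2180 through a synonym. The limma fit for dKO against WT and the removal of a length trend were tested on simulated data, and the other fits were not.

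The 10 genes and the lists were chosen with earlier results of these data known. All 10 were named in every comparison. Of each pathway list, the counts and the 4 lowest p-values per comparison at most were named. Of the marker lists, the sums per library were given, with some markers named beside them. The 8 genes most like the 10 were those with the highest Pearson r to their mean standardised log2 profile.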

Additional observations from a re-analysis of the deposited data

How the results depend on the processing

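In the dKO comparisons all 10 genes kept a positive change under every alternative run. Genes called by limma numbered 6790, 4963 and 5342 in dKO against WT, Tet2 KO and Traf6 KO, 58 and 38 in Tet2 KO and Traf6 KO against WT, and 31 in the interaction. After the length and GC correction there were 4016, 2163 and 2622 in the dKO comparisons and 61 in Traf6 KO against WT. Without dKO replicate 3 as well (chosen after seeing the data), there were 3568, 1489, 1837, 116 and 137. In the dKO comparisons with WT, Tet2 KO and Traf6 KO, 9, 5 and 8 of the 10 genes were then called. With the groups of a comparison alone, dKO against Tet2 KO had 24 genes and 0 of the 10, dKO against Traf6 KO 970 and Tet2 KO against WT 327. DESeq2 called 300, 167 and 259 genes in the single knockouts and the interaction, with 3 of the 10 in the interaction. Without the libraries labelled Tet2 KO replicate 1 and Traf6 KO replicate 1 (chosen after seeing the data), there were 57 genes and 4 of the 10 in dKO against Tet2 KO, 1706 in dKO against Traf6 KO, 117 and 25 in the single knockouts and 15 in the interaction. The cause of these shifts was not tested, apart from the fewer libraries or genes that enter.

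Equal library totals moved the median log2 change of all genes to -0.34, -0.36, -0.16 and -0.20 in dKO against WT, Tet2 KO and Traf6 KO and in the interaction, and the members' medians to 2.14, 1.72, 2.15 and 1.84. In dKO against Tet2 KO, 1458 genes were then higher and 3437 lower, where 2174 and 2789 were as deposited, and 8 of the 10 genes passed, with 9 against WT.

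Leaving out 1 library at a time gave 4707 to 7768, 867 to 6724 and 2069 to 6946 genes in the dKO comparisons with WT, Tet2 KO and Traf6 KO, 22 to 146 and 18 to 78 in Tet2 KO and Traf6 KO against WT, and 14 to 2445 in the interaction, with 9 to 10, 8 to 9, 9 to 10, 0 to 0, 0 to 0 and 0 to 7 of the 10 genes. In dKO against Tet2 KO, counts were 867 without Tet2 KO replicate 1, 3303 without dKO replicate 2 and 3290 without dKO replicate 3. In dKO against Traf6 KO they were 2274 without Traf6 KO replicate 1, 2069 without Traf6 KO replicate 3 and 3090 without dKO replicate 3. In Tet2 KO against WT they were 25, 22 and 26 without WT replicates 1, 2 and 3, 146, 34 and 30 without Tet2 KO replicates 1, 2 and 3, and 98 without dKO replicate 3. In Traf6 KO against WT they were 19, 18 and 20 without WT replicates 1, 2 and 3, and 78 without dKO replicate 3. In the interaction they were 15, 14 and 17 without those WT libraries, 20 without Traf6 KO replicate 3 and 2445 without dKO replicate 1.

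Signs turned only in the single knockouts, where no member was called. In Tet2 KO against WT, leaving out both libraries named above gave -0.33 for Fos, -0.13 for Fosb, -0.20 for Jun and -0.049 for Dusp1. Egr1 became 0.30 with edgeR, 0.28 with DESeq2, 0.18 after the length and GC correction and 0.17 without dKO replicate 3 as well. In Traf6 KO against WT, equal totals gave -0.062 for Junb, -0.019 for Ier2 and -0.06 for Zfp36. After the correction Junb was -0.025 and Ier2 -0.041, or -0.022 and -0.039 without dKO replicate 3 as well. Zfp36 was -0.012 without both libraries named above. Leaving out 1 library gave, in Tet2 KO against WT, -0.33 to 1.39 for Fos, -0.13 to 0.34 for Fosb, -0.20 to 1.203 for Jun, -0.77 to 0.46 for Egr1 and -0.049 to 1.11 for Dusp1. In Traf6 KO against WT it gave -0.24 to 0.18 for Junb, -0.22 to 0.37 for Egr1, -0.175 to 0.21 for Ier2 and -0.185 to 0.21 for Zfp36.

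The replicate numbers share only a number: over 18 pairs of libraries with the same number in different groups, the correlation of deviations from the group means was -0.177 to 0.193, with 3 over 0.1. With the replicate block, 10, 9 and 10 of the 10 genes passed in the dKO comparisons with WT, Tet2 KO and Traf6 KO and 0 in the others, with 6574, 4633, 4917, 45, 29 and 25 genes called. With the replicate block and the length and GC correction, 3916, 2030 and 2550 genes were called in the dKO comparisons, Egr1 was 0.18 in Tet2 KO against WT, and Junb and Ier2 were -0.025 and -0.041 in Traf6 KO against WT.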
